A study of Rattus norvegicus with 20 samples.

Results

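The synaptic vesicle and release machinery was examined as 38 genes listed by symbol, of 17168 genes in each table of hippocampal RNAseq from female rats at 4 months of age. The genes were listed for what their proteins do at the presynaptic terminal. No measured value entered the rule, though earlier results of these data were known when the list was made. All 38 were present in both tables and had a mean of at least 10 estimated counts per rat. Rats of the genotype comparison were wild type without treatment (WTNT, n = 5) or transgenic without treatment (TGNT, n = 5). Rats of the treatment comparison were transgenic without treatment (TGNT, n = 4) or transgenic with treatment (TGTR, n = 6). Transgenic rats were of the TgF344-AD line and carried human amyloid precursor protein with the Swedish mutation together with a further mutant human transgene, each driven by the prion promoter, so that expression was not limited to a single cell type. TGTR rats ate diazoxide and dibenzoylmethane (DZ/DIB) in their chow from day 52 of age until tissue was taken, whereas WTNT and TGNT rats ate normal chow. The 9 TGNT rats were different animals in the 2 comparisons, and no treated wild type rat was measured here. Each rat gave 1 hippocampus and 1 library. The labels name the left hippocampus and the methods of the study name the right.

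Release of transmitter runs through a cycle in which many of these proteins have a place. Synapsins tether vesicles in a reserve pool, Rab3 proteins and the active zone scaffolds bring them to the release site, and Munc13 proteins prime them. The SNARE proteins on vesicle and plasma membrane then zip together, complexins hold and assist the complex, and synaptotagmins such as Syt1 sense the calcium that triggers fusion. After fusion NSF and its SNAP adaptors pull the SNARE complex apart for another round. Loss of presynaptic proteins is a known feature of the hippocampus in Alzheimer's disease. Transcripts of these genes are made in the cell bodies, so hippocampal RNA reports on cells of the tissue and not on fibres that enter it.

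Estimated counts per rat summed to between 5848458 and 9926088 in the genotype comparison and between 9215039 and 14175594 in the treatment comparison. The 38 genes took between 1.48% and 1.75% of them. All 12 neuron markers were present, with a summed level of between 5461.5 and 7636.6 RPM (read counts relative to library size, scaled by the authors with TMM factors within each table) in the 20 rats. TGTR 5 and TGTR 6 stood apart by transcripts of the choroid plexus, whose 8 markers summed to 2857.1 and 140.0 RPM against a range of 8.68 to 23.0 RPM in the other 8 rats of that table. TGTR 4 stood apart by blood, whose 2 markers measured summed to 617 RPM against 84.9 to 130 RPM in the other 9 rats. In bulk tissue, fewer cells of a type and less RNA per cell cannot be told apart. The tables were scaled apart, so levels are compared only within a table.

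In the comparison of TGNT with WTNT rats, which asks what the transgenes do before plaques are present, 0 of the 38 genes were differentially expressed in edgeR's quasi-likelihood test, which here means a change of 1.5-fold or more together with an adjusted p under 0.05. In the same fit 2 of all 17168 genes, or 0.0116%, were past these thresholds. At an unadjusted p under 0.05 the count of members was also 0, against 1.99% of the 11356 genes with a mean of 10 counts that were higher in TGNT rats and 1.9% that were lower. No member had RPM ranges that were apart in the groups, where 0.335% of those genes had ranges apart with TGNT higher and 0.317% with TGNT lower. Of the members, 17 had a higher and 21 a lower mean estimate in TGNT rats. Their median log2 fold change was -0.018, and that of all genes with a mean of 10 counts was 0.006.

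The precision bounds what could have been missed. For 34 of the 38 genes, or 89.5%, the 95% interval of the fold change lay within a 1.5-fold difference in either direction, as it did for 83.6% of all genes with a mean of 10 counts. Intervals of Syt2, Syt17, Rab3b and Doc2a reached further. DESeq2 gave 1 member at an unadjusted p under 0.05, Vamp1, and the likelihood ratio test 1, Rab3b. The counts at that p depended on single rats. Without WTNT 3 they came to 8 members, and without WTNT 5 also to 8, of which Vamp1, Rims2 and Rab3b were in both sets. Without TGNT 2 the count was 3. The share of all genes at that p was not taken in these fits, so the counts stand without a background. The lowest adjusted p of any member in these fits was 0.386, for Syt17 without WTNT 5.

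**Figure D1:**
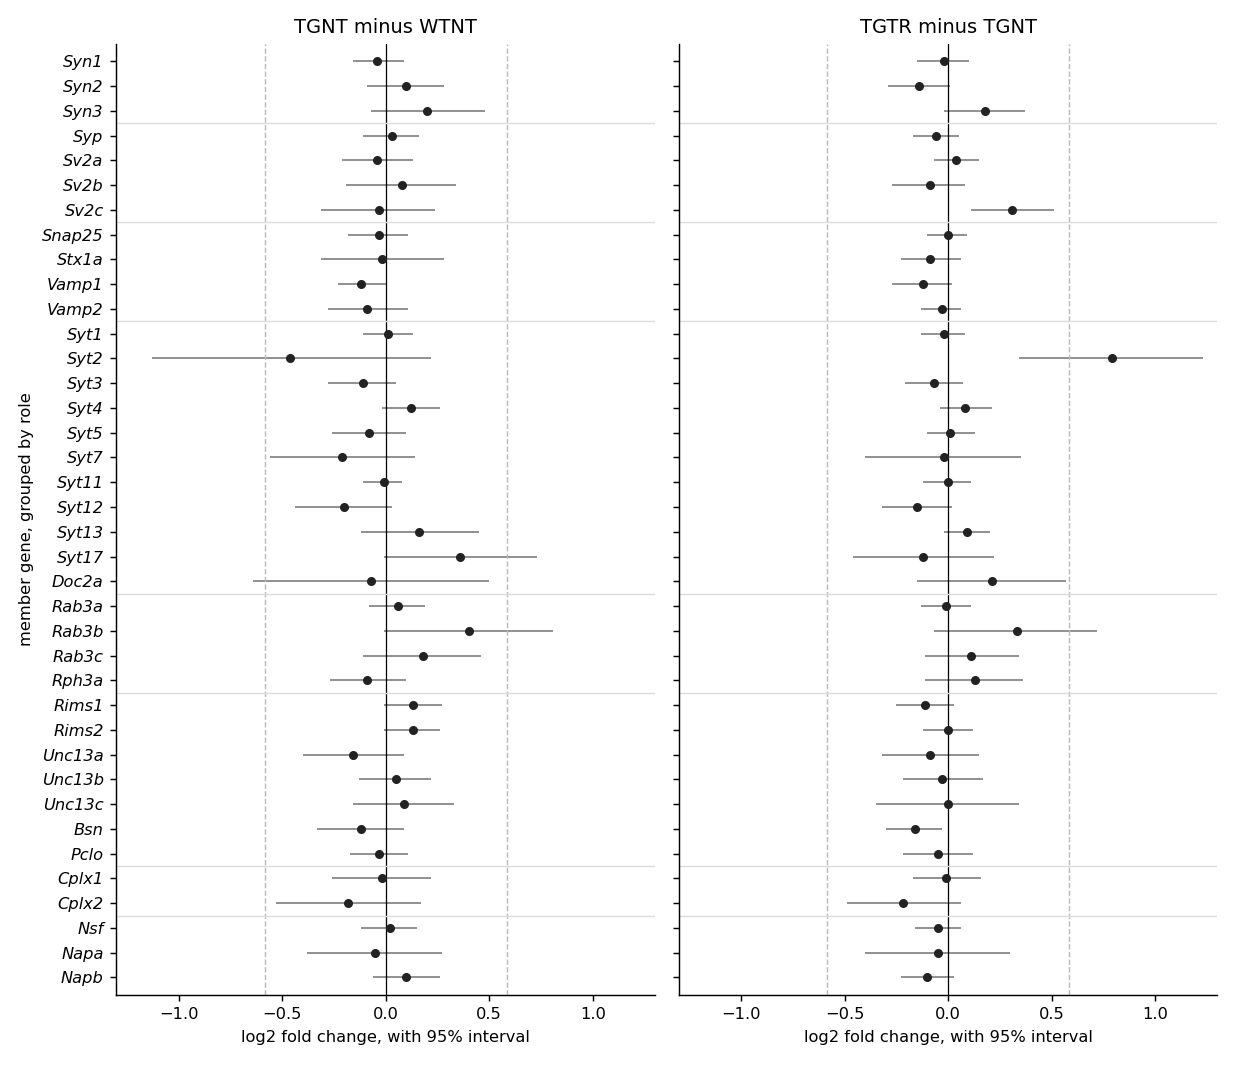
Log2 fold change of each of the 38 genes with its 95% interval, from edgeR, for TGNT minus WTNT rats (left, n = 5 and 5) and TGTR minus TGNT rats (right, n = 6 and 4); grey lines part the roles and dashed lines mark a 1.5-fold difference. Most points lie close to 0 with intervals inside the dashed lines, and Syt2 has the largest difference on the right, at 0.79.

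Synapsins and membrane proteins of the vesicle differed little between genotypes. Syn1, the most studied of the synapsins, ran at 617, 639, 656, 585 and 664 RPM in WTNT rats and 623, 592, 652, 638 and 566 RPM in TGNT rats. These ranges overlapped over most of their length, and the log2 fold change was -0.04 (SE 0.0577, unadjusted p = 0.549, edgeR). Syn3, the synapsin of developing neurons, had the third largest positive difference, at 0.20 (SE 0.128, edgeR p = 0.131, exact permutation p = 0.175). Its 5 WTNT rats were between 11.8 and 18.4 RPM and its 5 TGNT rats between 14.5 and 18.0 RPM. Syp (synaptophysin) was at 0.03 (SE 0.0634). The SV2 glycoproteins Sv2a, Sv2b and Sv2c lay between -0.04 and 0.08.

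Each of the 4 SNARE genes had a lower estimate in TGNT rats, between -0.12 and -0.02, and none of them passed a threshold in edgeR. Vamp1, a vesicle SNARE, was the closest. It was measured at 256, 243, 233, 228 and 223 RPM in WTNT rats and at 217, 222, 223, 219 and 205 RPM in TGNT rats. The groups met at their ends, with the lowest WTNT rat level with the highest TGNT rat. The log2 fold change was -0.12 (SE 0.0554, unadjusted p = 0.0524, adjusted p = 1 in edgeR), and the exact two-sided permutation test of the mean RPM gave p = 0.0159, where 0.00794 is the smallest p that 5 against 5 rats allow. That was the only one of the 38 permutation p-values under 0.05 in this comparison. The permutation test was run on listed genes only, so no share over all genes stands beside that count. Snap25, the plasma membrane SNARE, was at 2937.9 ± 223 RPM (SD, n = 5) in WTNT and 2856.2 ± 226 RPM (SD, n = 5) in TGNT rats, a log2 fold change of -0.03 (SE 0.069). Vamp2, the main vesicle SNARE of forebrain, was at -0.09 (SE 0.0901) and Stx1a at -0.02 (SE 0.139).

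The synaptotagmins and Doc2a, grouped as a role, held both the most negative and one of the most positive differences. Syt1, the sensor of fast release in most forebrain neurons, was at 1105.9 ± 64.5 RPM (SD, n = 5) in WTNT and 1110.7 ± 44.3 RPM (SD, n = 5) in TGNT rats (log2 fold change 0.01, SE 0.0561). Syt2, its fast relative in hindbrain and in parvalbumin interneurons, was measured at 11.4, 27.2, 41.2, 15.4 and 15.6 RPM in WTNT rats. In TGNT rats it was measured at 11.0, 25, 14.2, 21.5 and 10.8 RPM. The spread within a group exceeded the distance between the groups, and the log2 fold change of -0.46 had a 95% interval from -1.13 to 0.22 (edgeR p = 0.168, exact permutation p = 0.405). Syt17, an atypical synaptotagmin, was measured at 58.8, 55.0, 69.5, 61.8 and 114 RPM in WTNT rats and at 109, 80.5, 107, 70.7 and 91.7 RPM in TGNT rats. Of the WTNT rats 4 were below all TGNT rats and WTNT 5 was above all of them. The log2 fold change was 0.36 (SE 0.174, edgeR p = 0.055, exact permutation p = 0.159), and 0.59 without WTNT 5. Syt7, the slow high-affinity sensor, was at -0.21 (SE 0.164, exact permutation p = 0.349) and Syt12 at -0.20 (SE 0.11, exact permutation p = 0.111). Of the 11 genes of this role 4 were higher and 7 lower.

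Among the Rab3 genes, Rab3b had the largest positive difference of the 38. It was measured at 11.8, 13.3, 24.1, 14.5 and 18.2 RPM in WTNT rats and at 14.2, 23.4, 19.9, 24.6 and 26.2 RPM in TGNT rats. The ranges overlapped through WTNT 3 and TGNT 1, and the log2 fold change was 0.40 (SE 0.193, edgeR p = 0.0537, exact permutation p = 0.111). Without WTNT 3 it was 0.58. Rab3a, the main Rab3 of forebrain vesicles, was at 0.06 (SE 0.0639, exact permutation p = 0.413).

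The active zone genes went in both directions, 4 higher and 3 lower. Rims1 was at 0.13 (SE 0.0642, edgeR p = 0.0615, exact permutation p = 0.0873), with 472 ± 26 RPM (SD, n = 5) in WTNT and 514 ± 41.8 RPM (SD, n = 5) in TGNT rats. Rims2, its paralog, was also at 0.13 (SE 0.0619). Bsn (bassoon), a giant scaffold protein, was at -0.12 (SE 0.1, exact permutation p = 0.317). Its 5 WTNT rats were between 1191.9 and 1694.9 RPM and its 5 TGNT rats between 1215.2 and 1541.4 RPM, so the TGNT range lay within that of the WTNT rats. Cplx1 was at -0.02 (SE 0.111) and Nsf, the ATPase that recycles SNARE proteins, at 0.02 (SE 0.0617).

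In the comparison of TGTR with TGNT rats, which asks what DZ/DIB does in transgenic rats, 0 of the 38 genes passed the adjusted threshold in edgeR, as did 0.0% of all 17168 genes. At an unadjusted p under 0.05, 3 of the 38 genes differed. Syt2 and Sv2c were higher in TGTR rats, as were 3.9% of the 12029 genes with a mean of 10 counts, and Bsn was lower, as were 2.24% of them. These counts are about what those shares give for a list of 38 genes. The same 3 were the only members with RPM ranges that were apart, where 0.806% of those genes had ranges apart with TGTR higher and 0.648% with TGTR lower. Of the members, 11 had a higher and 27 a lower estimate, with a median log2 fold change of -0.022 against 0.000 over all genes with a mean of 10 counts. Those genes were higher in 6029 and lower in 6000 cases. The 12 neuron markers had 4 higher and 8 lower, with a median log2 fold change of -0.032. The 95% interval lay within a 1.5-fold difference for 36 of the 38 genes, or 94.7%, against 83.8% of all those genes, and Syt2 and Rab3b were the exceptions. When counts were scaled by library size alone, the median of the members moved to 0.014 and that of all genes to 0.037. The count at an unadjusted p under 0.05 was 8 without TGNT 1 of this table, and 5 without TGNT 4, TGTR 1 or TGTR 2 in turn. For fits with a rat left out, the share of all genes at that p was not taken.

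Syt2 had the largest difference. It was measured at 12.6, 9.94, 11.6 and 11.4 RPM in TGNT rats. In TGTR rats it was measured at 13.8, 14.0, 20.8, 15.8, 26.6 and 27.6 RPM. Every TGTR rat was above every TGNT rat, and TGTR 5 and TGTR 6 were highest. Mean levels were 11.4 ± 1.11 RPM (SD, n = 4) and 19.8 ± 6.19 RPM (SD, n = 6), and these rest on 116 to 340 estimated counts per rat. The log2 fold change was 0.79 (SE 0.206, 95% interval 0.34 to 1.23), a fold of 1.73, with an unadjusted p of 0.00211 and an adjusted p of 0.913 in edgeR. The exact two-sided permutation test gave p = 0.0333, where the smallest p that 4 against 6 rats allow is 0.00476. Without TGTR 5 and TGTR 6, the rats with choroid plexus transcripts, the log2 fold change was 0.49, with an adjusted p of 1 in edgeR, and without TGTR 4 it was 0.84. Over the other fits it lay between 0.49 and 0.87 and the adjusted p between 0.118 and 1.

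**Figure D2:**
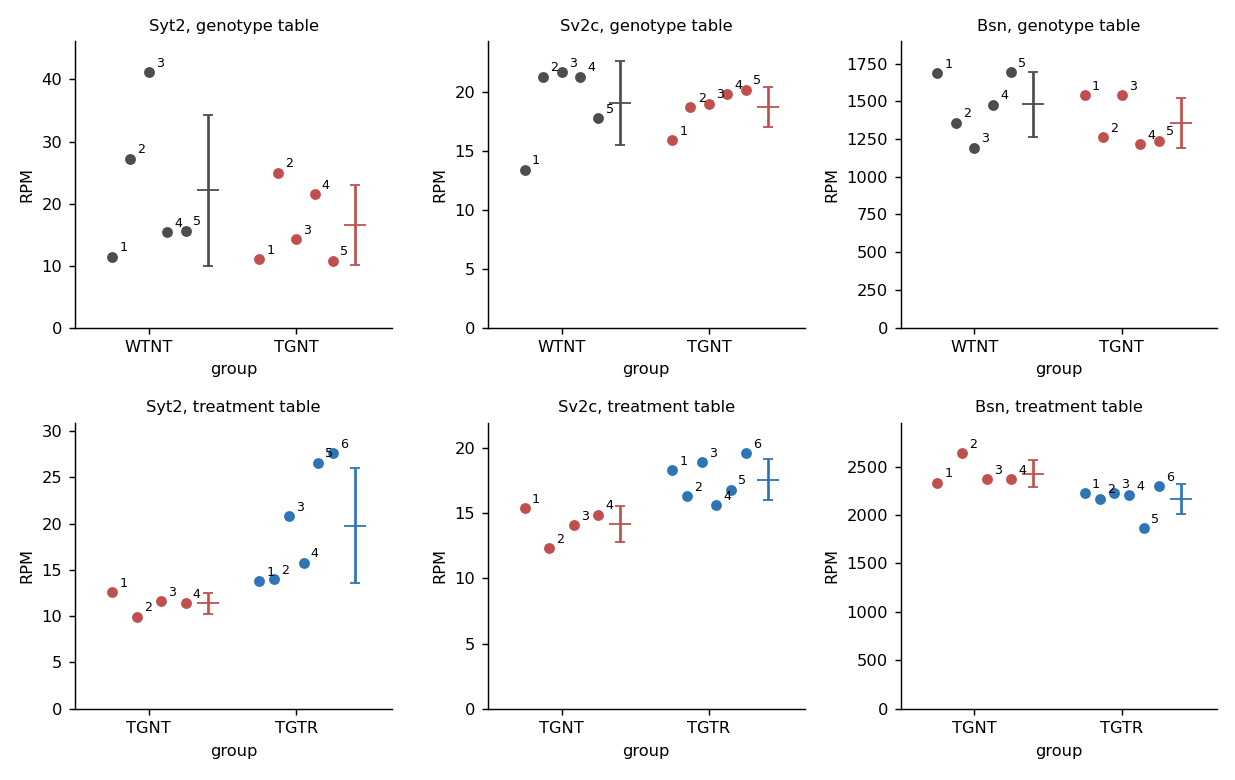
RPM of Syt2, Sv2c and Bsn in each rat, with rat numbers, in the genotype table (top) and the treatment table (bottom); bars give the mean and SD of each group, and each vertical axis starts at 0. In the treatment table the groups are apart for all 3 genes, while in the genotype table they overlap for all 3.

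Rats high in Syt2 were also high in Tbr1, a transcription factor of deep cortical layers and subiculum, which was picked after its values were seen. Tbr1 was at 26.6, 23.7, 33.7 and 27.9 RPM in TGNT rats and at 35.1, 30.1, 34.7, 35.6, 42.2 and 52.9 RPM in TGTR rats. TGTR 5 and TGTR 6 were the highest for both genes, while TGTR 3, the next for Syt2, was below TGTR 1 and TGTR 4 for Tbr1. In the genotype table, the 4 rats highest for Syt2 were WTNT 3, WTNT 2, TGNT 2 and TGNT 4, with Tbr1 at 42.0, 37.1, 34.2 and 42.2 RPM against 24.2 to 29.3 RPM in the other 6 rats. The 8 markers of subiculum and cortex as a whole did not order these rats like Syt2, since they summed to 450, 421, 401 and 428 RPM in the 4 rats against 387 to 438 RPM in the other 6. In the treatment table, of the 8 markers of that list, 7 were higher in TGTR rats and 3 of them had an unadjusted p under 0.05, and their summed level was between 397 and 435 RPM in TGNT and between 422 and 538 RPM in TGTR rats. Among all genes with a mean of 10 counts, 3.9% were higher in TGTR rats at that p. Of the 10 markers of thalamus and habenula 8 were in the table and 6 were higher, with sums between 90.5 and 121 RPM in TGNT and between 95 and 131 RPM in TGTR rats. TGTR 6 had the highest of these sums, and TGTR 5, at 112 RPM, was within the TGNT range. The mean log2(RPM + 1) of the list was 2.82 in TGTR 5 and 2.84 in TGTR 6. It was between 2.43 and 2.66 in the other 8 rats. Prkcd, a marker of that list picked after its values were seen, was at 22.1 RPM in TGTR 5 and 17.8 RPM in TGTR 6. The other 8 rats had Prkcd between 7.45 and 11.6 RPM. Tcf7l2, of the same list, was at 14.5 and 13.4 RPM in TGTR 5 and TGTR 6 against 11.2 to 14.7 RPM. The part of neighbouring tissue in the Syt2 difference was not tested. Of the 8 markers of GABA interneurons 7 were higher in TGTR rats, 1 of them at an unadjusted p under 0.05, with a median log2 fold change of 0.124 and sums of 589 to 704 RPM in TGNT against 639 to 752 RPM in TGTR rats. Among them Pvalb was between 22.1 and 30.0 RPM in TGNT and between 25.8 and 34.2 RPM in TGTR rats. In the genotype table Pvalb was at 38.4 and 27.7 RPM in WTNT 3 and WTNT 2. It was at 29.6 and 25.4 RPM in TGNT 2 and TGNT 4, against 21.0 to 26.9 RPM in the other 6 rats. Prkcd was at 16.1, 7.57, 11.8 and 15.7 RPM in these 4 rats in the same order, against 3.81 to 9.9 RPM in the other 6.

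**Figure D3:**
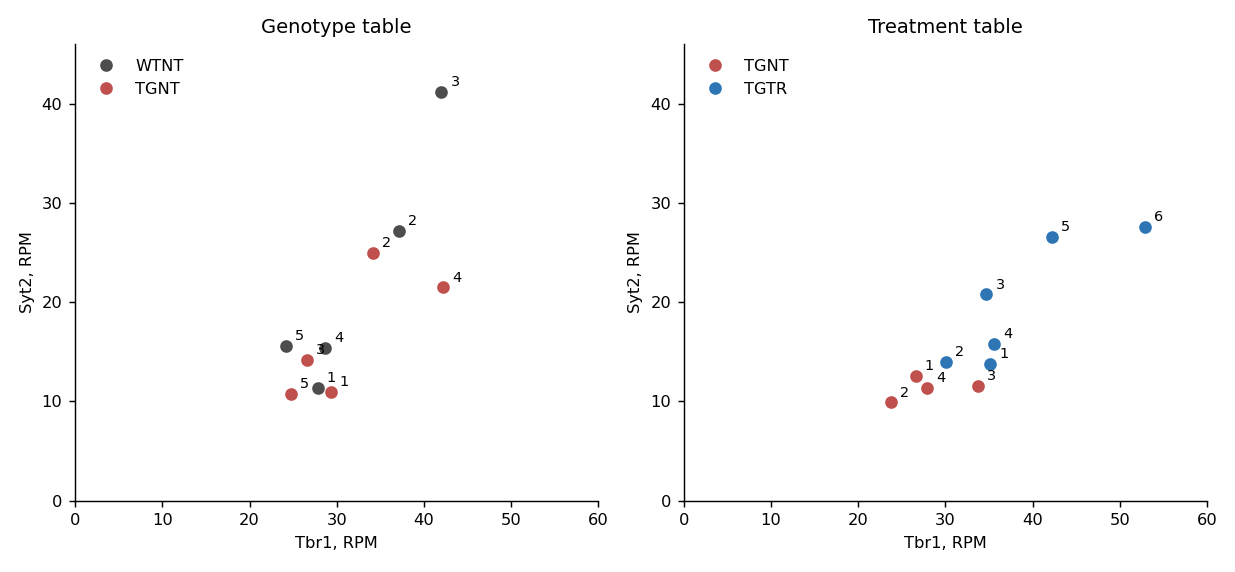
Syt2 against Tbr1 in each rat, both in RPM, for the genotype table (left) and the treatment table (right), with rat numbers and the groups in colour. The 4 rats with the highest Syt2 in the genotype table and the 2 with the highest in the treatment table are also those with the highest Tbr1, up to 52.9 RPM in TGTR 6.

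Sv2c, the SV2 vesicle glycoprotein best known from basal ganglia, was measured at 15.4, 12.3, 14.1 and 14.9 RPM in TGNT rats. In TGTR rats it was measured at 18.3, 16.3, 18.9, 15.6, 16.8 and 19.6 RPM. The groups were apart by a narrow gap, between TGNT 1 and TGTR 4. The log2 fold change was 0.31 (SE 0.0915, 95% interval 0.11 to 0.51, unadjusted p = 0.00491, adjusted p = 0.957, edgeR), and the exact two-sided permutation test gave p = 0.0143. Without TGTR 5 and TGTR 6 it was 0.28, without TGTR 4, the rat with blood transcripts, it was 0.34, and it lay between 0.25 and 0.35 over the other fits. Its paralog Sv2a was at 0.04 (SE 0.0502) and Sv2b at -0.09 (SE 0.08), and the differences between the paralogs were not tested.

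Bsn was measured at 2332.8, 2637.6, 2369.5 and 2368.2 RPM in TGNT rats. In TGTR rats it was measured at 2223.3, 2169.9, 2225.2, 2207.2, 1865.3 and 2297.5 RPM. All 6 TGTR rats were below the lowest of the TGNT rats, with TGTR 5 far below the rest of its group and TGNT 2 far above its own. The log2 fold change was -0.16 (SE 0.0613, 95% interval -0.30 to -0.03, unadjusted p = 0.0201, adjusted p = 0.964, edgeR), a fold of 0.893. The exact two-sided permutation test gave p = 0.00476, the smallest that these group sizes allow. Without TGTR 5 and TGTR 6 the log2 fold change was -0.14, and without TGTR 4 it was -0.17. Without TGNT 2 it was -0.12, and there, as in limma on log2(RPM + 1), the unadjusted p was no longer under 0.05. The estimated counts of Bsn had a fractional part in all 10 rats of this table, as RSEM gives where reads are shared with another gene, and those of Snap25, Vamp2 and Doc2a did so in all 20 rats.

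The other active zone genes had estimates between -0.11 and 0.00 in TGTR rats, none of them with an unadjusted p under 0.05. Rims1, which links Rab3 to the calcium channel, was at 415, 495, 421 and 453 RPM in TGNT rats and between 369 and 443 RPM, with a median of 418 RPM, in TGTR rats (log2 fold change -0.11, SE 0.0642, exact permutation p = 0.148). Pclo (piccolo), the close relative of bassoon, was at -0.05 (SE 0.0786). The priming factors Unc13a, Unc13b and Unc13c were at -0.09, -0.03 and 0.00. With Bsn, all 7 genes of this role were thus at or below 0, as were the 4 SNARE genes (Snap25 at 0.00, Vamp2 at -0.03, Stx1a at -0.09 and Vamp1 at -0.12), the 2 complexins and the 3 genes of SNARE disassembly. Of Bsn, Rims1, Snap25, Vamp2, Cplx1, Cplx2 and Nsf, the genes Snap25, Vamp2 and Cplx1 turned to small positive values under library size scaling, between 0.01 and 0.03. Other genes of these roles were positive in at least 1 fit, with highest estimates of 0.04 for Rims2, 0.07 for Unc13b, 0.1 for Unc13c and 0.07 for Napa.

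Among the remaining genes, Rab3b was again at a positive estimate, 0.33 (SE 0.183, edgeR p = 0.0968, exact permutation p = 0.171). TGNT rats were at 29.5, 18.5, 16.2 and 20.3 RPM and TGTR rats between 19.2 and 32.9 RPM with a median of 27.7 RPM, and TGNT 1 was the rat that made the groups overlap most. Without TGNT 1 the log2 fold change was 0.53. Cplx2, the complexin of excitatory neurons, had the most negative estimate, -0.22 (SE 0.128, exact permutation p = 0.186), with 257, 373, 380 and 319 RPM in TGNT rats and between 206 and 333 RPM in TGTR rats. Syt12 was at -0.15 (SE 0.0773, exact permutation p = 0.0714). The genes set for each role stayed close to their TGNT level: Syt1 was at -0.02 (SE 0.0496), Syn1 at -0.02 (SE 0.0576), Syp at -0.06 (SE 0.0528), Rab3a at -0.01 (SE 0.0544), Cplx1 at -0.01 (SE 0.0777) and Nsf at -0.05 (SE 0.0501).

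The 2 comparisons share no rats, and their estimates can be set side by side. Of the 38 genes 5 were higher in both, 15 lower in both, 12 higher in TGNT than WTNT and lower in TGTR than TGNT rats, and 6 the reverse. For 11342 genes with a mean of 10 counts in both tables, these counts were 3035, 2764, 2909 and 2634 in the same order. Members were thus lower in both more often, and higher in both less often, than those genes, a difference that was not tested. The sign was the same for 52.6% of the members and for 51.1% of those 11342 genes. Syt2 was among the reverse ones, at -0.46 and 0.79, and Rab3b and Syn3 were higher in both, Syn3 at 0.20 and 0.18.

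The members differed widely in how much they varied between rats of a group. The SD of log2(RPM + 1) within groups, averaged over both tables, ran from 0.469 for Syt2 and 0.367 for Doc2a, a high-affinity calcium sensor, down to 0.0774 for Snap25, 0.0662 for Syt1 and 0.0455 for Syt11. Syt7, Rab3b, Napa, Syt17 and Cplx2 followed Doc2a, all at 0.3 or more. The median member had an SD of 0.166 in the genotype table and 0.116 in the treatment table, against 0.162 and 0.129 over all genes with a mean of 10 counts. Doc2a had only 35.6 to 116 estimated counts per rat in the genotype table, so counting error adds to its spread. Syt7, Napa and Cplx2, in contrast, were at 92.6 RPM or more in all 20 rats.

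**Figure D4:**
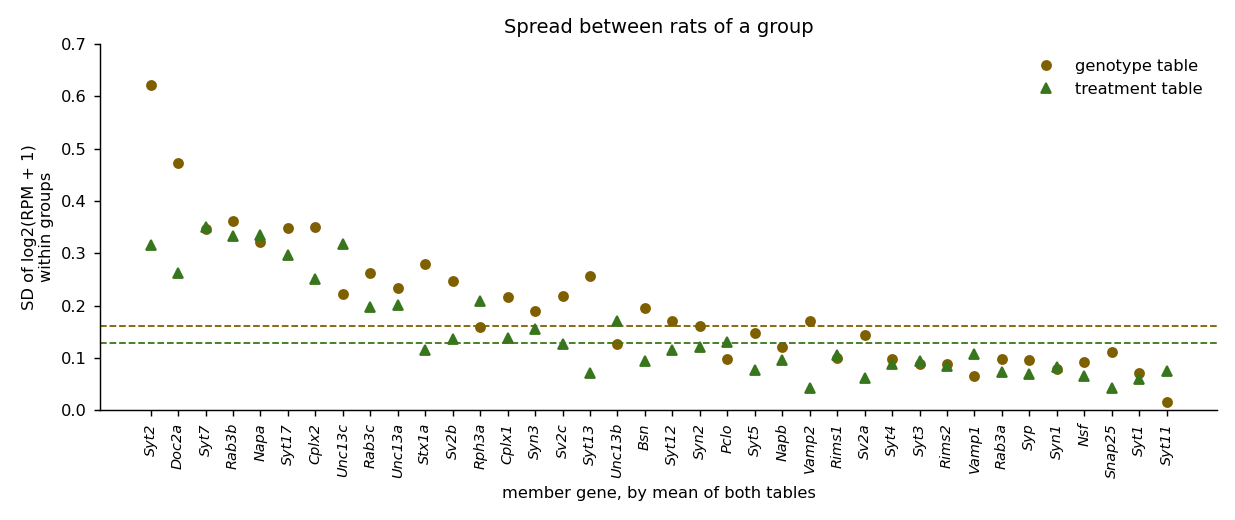
SD of log2(RPM + 1) between rats of a group for each member in the genotype table (circles) and the treatment table (triangles), sorted by the mean of both; dashed lines give the median over all genes with a mean of 10 counts, 0.162 and 0.129. Syt2 is at the left end and Snap25, Syt1 and Syt11 are at the right end.

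Several of the variable genes moved together from rat to rat, and these were picked after their values were seen. Syt7 was at 207, 196 and 195 RPM in WTNT 1, 2 and 4 but at 122 and 112 RPM in WTNT 3 and 5. Napa, the SNAP adaptor of NSF, was at 181, 174 and 178 RPM in the first 3 of these rats and at 103 and 107 RPM in the other 2. Unc13a, the main priming factor, was at 355, 301 and 338 RPM against 216 and 246 RPM. The same rats thus divided the WTNT group for all 3 genes, by more than the difference between the means of WTNT and TGNT rats. Cplx1, the complexin better known from inhibitory neurons, went the other way, at 269, 282 and 251 RPM against 377 and 360 RPM. Rab3c went that way too, at 45.9, 59.7 and 49.5 RPM against 81.5 and 72.3 RPM. In the treatment table Syt7 was lowest in TGNT 1 (92.6 RPM), TGTR 5 (98.6 RPM) and TGTR 2 (110 RPM), against 137 to 170 RPM in the other 7 rats. Napa was lowest in the same 3 rats, at 153, 166 and 198 RPM against 222 to 289 RPM, and so was Unc13a, at 279, 252 and 298 RPM against 332 to 379 RPM. Cplx1 was highest in 2 of them, at 488 RPM in TGNT 1 and 464 RPM in TGTR 2, but not in TGTR 5.

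Marker sums of hippocampal subfields also varied between these rats. The 5 CA3 markers measured summed to 573, 507 and 528 RPM in WTNT 1, 2 and 4 and to 294 and 333 RPM in WTNT 3 and 5. In the treatment table they summed to 280 RPM in TGNT 1, 252 RPM in TGTR 5 and 379 RPM in TGTR 2, and to between 392 and 543 RPM in the other 7 rats. The 3 lowest rats of the treatment table and the 2 of the WTNT group were thus the same for these genes and for the CA3 sum. The TGNT rats of the genotype table did not follow this order. There Syt7 and Unc13a were lowest in TGNT 3, at 110 and 238 RPM, with a CA3 sum of 384 RPM, while TGNT 2 had the lowest CA3 sum, 276 RPM, with Syt7 at 133, Unc13a at 255 and Napa at 120 RPM. The 5 dentate gyrus markers measured summed to 90.8 and 153 RPM in WTNT 3 and 5 against 219 to 294 RPM in the other 3, and to 162, 201 and 151 RPM in TGNT 1, TGTR 2 and TGTR 5 against 227 to 294 RPM in the other 7 rats of the treatment table. The 5 CA1 markers used summed to 754, 715 and 657 RPM in those 3 rats against 800 to 1136.8 RPM in the other 7. GABA interneuron markers went the other way in the WTNT group, as Cplx1 and Rab3c did, with 761 and 751 RPM in WTNT 3 and 5 against 597, 652 and 614 RPM in the other 3 rats. In the treatment table they summed to 704 RPM in TGNT 1 against 589 to 630 RPM in the other TGNT rats, and to 738 RPM in TGTR 2 and 682 RPM in TGTR 5 within a TGTR range of 639 to 752 RPM. Other cell types also varied. Oligodendrocyte markers summed to 4272.6, 5023.5 and 5035.1 RPM in TGNT 1, TGTR 2 and TGTR 5, against 6029.8 to 7684.3 RPM in the other 7. Astrocyte markers summed to 3921.7, 3865.6 and 3547.5 RPM against 4007.6 to 4507.6 RPM. The neuron marker Rbfox3 was also lowest in these 3 rats, and in WTNT 3 and 5 of the WTNT group. Oligodendrocyte markers did not follow there, at 10632.6 RPM in WTNT 3 and 4697.6 RPM in WTNT 5. The part of subfield, interneuron or other cell content in the spread of these genes was not tested.

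**Figure D5:**
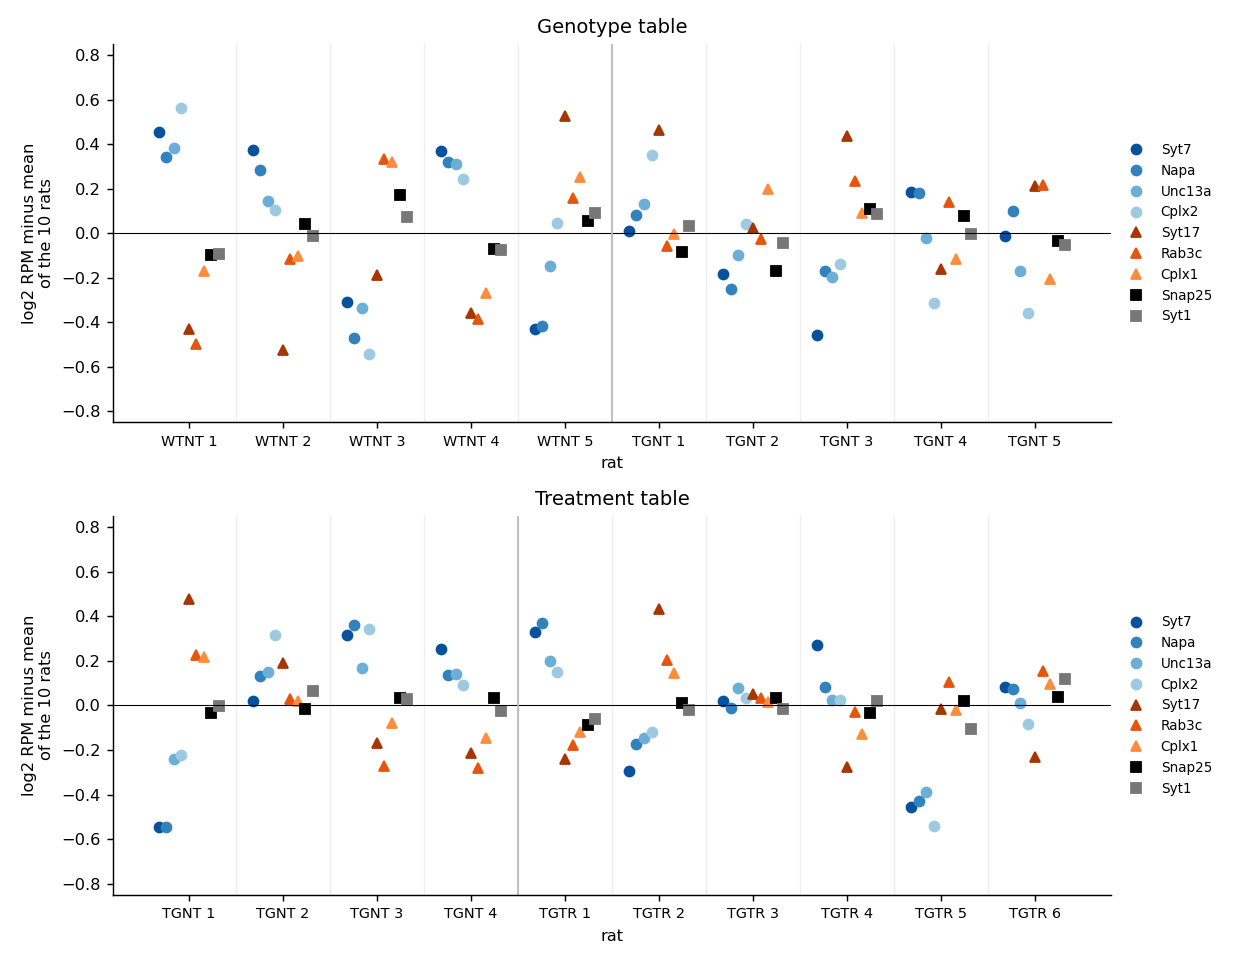
Log2 RPM of 9 members in each rat minus the mean of the 10 rats of a table, for Syt7, Napa, Unc13a and Cplx2 (blue circles), Syt17, Rab3c and Cplx1 (orange triangles) and the steady genes Snap25 and Syt1 (squares). Blue and orange symbols lie on opposite sides of 0 in WTNT 1 to 4, apart from Syt17 in WTNT 3, and in TGNT 3 of the genotype table. They also do so in TGNT 1, TGNT 3, TGNT 4, TGTR 1, TGTR 2 and TGTR 4 of the treatment table. The squares stay near 0.

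Further genes of the release pathway also held none past the adjusted threshold. Of 40 other release genes listed, 37 were in the tables, and 13 were higher and 24 lower in TGNT than WTNT rats. Of these only Erc1, an active zone scaffold of the ELKS family, had an unadjusted p under 0.05, at -0.25 (SE 0.0888, edgeR p = 0.014, exact permutation p = 0.0397, adjusted p = 1). In TGTR rats 17 were higher and 20 lower than in TGNT rats. At an unadjusted edgeR p under 0.05, Erc2 was at -0.17 (SE 0.0552, exact permutation p = 0.019) and Erc1 at -0.16 (SE 0.0707, exact permutation p = 0.0571). Rims3 was at 0.37 (SE 0.137, exact permutation p = 0.0667) and Sypl1, a synaptophysin relative of many tissues, at 0.13 (SE 0.0506, exact permutation p = 0.0143). All 4 had an adjusted p of 0.964 or more in edgeR. Among all genes with a mean of 10 counts, 3.9% were higher in TGTR rats and 2.24% lower at that unadjusted p. In the genotype comparison 1.99% were higher in TGNT rats and 1.9% lower. Erc1 was lower in both comparisons, with 140 ± 20 RPM (SD, n = 5) in WTNT and 117 ± 7.64 RPM (SD, n = 5) in TGNT rats of the genotype table. Of 26 genes of vesicle recycling (clathrin, dynamins and their adaptors), 24 were in the tables, and 0 had an unadjusted p under 0.05 in either comparison, with medians of -0.014 and -0.039. DESeq2 gave 1 recycling gene at that p in the treatment comparison. Without TGNT 1 of that comparison the count of other release genes was 9, and without TGTR 5 and TGTR 6 it was 1. These counts too have no share over all genes beside them.

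The promoters of the 3 genes with an unadjusted p under 0.05 in the treatment comparison, none of which passed the adjusted threshold, are shown beside that of Syt1, a steady member, to let a reader compare them. They are the 250 bases before the annotated start in RefSeq's GRCr8 assembly, not the rn6 build of the counts. Capitals mark GC boxes (GGGCGG) and cores of the NRF1 site (CGCATGCG), found on either strand. The CRE half-site (TGACG) and the TATA box (TATAAA) were searched as well and were in none of the 4.
Syt2, chr13:48736872-48737121, plus strand: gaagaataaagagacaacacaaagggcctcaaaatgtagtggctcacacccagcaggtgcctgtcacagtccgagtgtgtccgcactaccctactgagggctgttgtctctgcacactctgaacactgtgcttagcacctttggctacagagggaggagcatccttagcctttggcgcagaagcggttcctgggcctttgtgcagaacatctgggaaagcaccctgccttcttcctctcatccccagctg
Sv2c, chr2:29163169-29163418, minus strand: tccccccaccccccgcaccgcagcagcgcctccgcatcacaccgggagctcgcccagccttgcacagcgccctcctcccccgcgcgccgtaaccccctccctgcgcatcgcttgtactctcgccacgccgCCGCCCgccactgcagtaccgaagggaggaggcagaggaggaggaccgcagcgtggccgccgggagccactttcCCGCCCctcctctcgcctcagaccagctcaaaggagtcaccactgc
Bsn, chr8:117754413-117754662, minus strand: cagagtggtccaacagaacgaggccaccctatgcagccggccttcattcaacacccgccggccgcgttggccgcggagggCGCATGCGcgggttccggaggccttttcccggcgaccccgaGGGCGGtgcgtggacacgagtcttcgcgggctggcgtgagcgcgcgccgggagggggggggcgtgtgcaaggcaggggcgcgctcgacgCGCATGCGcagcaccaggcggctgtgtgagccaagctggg
Syt1, chr7:46244214-46244463, minus strand: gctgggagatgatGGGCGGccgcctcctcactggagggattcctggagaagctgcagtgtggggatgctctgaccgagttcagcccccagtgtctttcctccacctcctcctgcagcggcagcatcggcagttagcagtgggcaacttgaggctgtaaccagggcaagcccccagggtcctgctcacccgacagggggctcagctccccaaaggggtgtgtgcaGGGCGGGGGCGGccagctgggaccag
The Syt2 sequence held 4 CpG dinucleotides and 54.4% G and C, whereas Sv2c held 25 at 72.0%, Bsn 33 at 72.8% and Syt1 8 at 66.0%. The Syt2 window thus held none of the searched motifs and the fewest CpG dinucleotides of the 4, and Bsn held 2 cores of the NRF1 site.

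Promoters were found for 29 of the 38 genes. Their median content of G and C was 64.8%, against 51.2% over 33469 promoters and 60.4% over 9004 promoters of genes with a mean of 10 counts in a table. A GC box was in 21 of the 29, or 72.4%, against 30.5% and 58.6% of these sets. A CRE half-site was in 9, or 31.0%, against 18.2% and 28.1%. The full CRE (TGACGTCA), which includes the half-site, was in 3, those of Syn1, Vamp1 and Napa, or 10.3% against 1.59% and 3.0%. A TATA box was in 0 of the 29, against 12.9% and 6.5%, and a core of the NRF1 site was in 2, those of Bsn and Stx1a, or 6.9% against 1.47% and 3.15%. The members were thus closest to the promoters of the other expressed genes, and a match of letters is a description and not a binding site. Syn1, Syn2, Syn3, Doc2a and Rab3a overlap another counted gene in that annotation, and whether counting used strand is not given in the sources used here.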

How the data were processed

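The authors sequenced stranded poly(A) libraries of 20 female rats, 1 library per rat. The submitters' processing notes name bcl2fastq 2.17, Bowtie2 2.1.0, RSEM 1.2.15, edgeR and the build rn6, without parameters or an annotation. Each comparison has 2 deposited tables from the authors, one of expected counts per gene symbol from RSEM and one of RPM, a signal they scaled with TMM factors. No library was pooled, and 0 columns were left without a sample.

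Expected counts were rounded and fitted in edgeR 4.0.16 (R 4.3.3) with TMM and the quasi-likelihood test, each table by itself and over all 17168 genes. Two-sided p-values were adjusted by Benjamini-Hochberg over the whole table. Differential expression required a 1.5-fold change and an adjusted p under 0.05. Standard errors were taken from the estimate and its F value, and 95% intervals from the t distribution with the fitted degrees of freedom. For each member the difference in mean RPM was also tested by exact two-sided permutation over all 252 (5 against 5) or 210 (4 against 6) arrangements. On simulated counts with 200 of 17168 genes changed 2-fold, 93% were found with 1.59% false calls in the genotype comparison, and 82% with 2.96% in the treatment comparison. This checks the fit and does not give the power for the members. In the measured data 2 and 0 genes passed, and the adjusted threshold is harder to reach where few genes change. Changes of 1.5-fold, and rats with other tissue such as TGTR 5, were not simulated. Nothing in the labels says that rats of a group came from separate litters, so p-values measure the spread between these rats only.

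The members and the lists of pathway and marker genes were chosen with earlier results of these data known. Genes were named with full values if their unadjusted p was under 0.05, if their ranges were apart, if they were among the 3 largest differences in a direction, or if they were set for a role (Syn1, Syp, Snap25, Vamp2, Syt1, Rab3a, Rims1, Bsn, Cplx1 and Nsf). Other members are named for their role, as values only, and were not chosen by rule. Alternatives were DESeq2 1.42.0, limma 3.58.1 on log2 of RPM plus 1 or 0.1, other edgeR tests, scalings and filters, a replicate block, and each rat left out. Leaving out TGTR 5 and TGTR 6 was chosen after the data were seen. Promoters were matched by symbol to RefSeq sequences of GRCr8.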

Additional observations from a re-analysis of the deposited data

Results flagged for a closer look

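Of 152 groups of rats tested for a single rat far from the others (38 genes in 4 groups), 9 were flagged, where chance alone flags about 1 in 20, or 7.6. In the genotype table, Sv2b stood at 1237.7 RPM in TGNT 3 with the next rat at 984 RPM, and Syt17 stood at 114 RPM in WTNT 5 with the next at 69.5 RPM. In the TGNT rats of the treatment table, Bsn was high in TGNT 2 at 2637.6 RPM (next 2369.5 RPM), Unc13a was low in TGNT 1 at 279 RPM (next 364 RPM) and Nsf was low in TGNT 4 at 736 RPM (next 796 RPM). In TGTR rats, Syn1 was high in TGTR 6 at 857 RPM (next 754 RPM) and Syn2 was high in TGTR 2 at 572 RPM (next 509 RPM). Vamp1 was low in TGTR 5 at 169 RPM (next 201 RPM), and so was Bsn at 1865.3 RPM (next 2169.9 RPM). TGTR 5 was also the rat with 2857.1 RPM of choroid plexus markers, and the part of that tissue in its low values was not tested.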

How the results depend on the processing

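No member was past the adjusted threshold in any of the 20 alternative fits of the genotype comparison or the 21 of the treatment comparison. The median log2 fold change of the members moved by less than the spread between rats in all of them, from -0.028 to 0.021 and from -0.043 to 0.014. In the genotype comparison the count of members at an unadjusted p under 0.05, which was 0, was 1 with the likelihood ratio test, the exact test, DESeq2, limma with 0.1 added, RLE or upper quartile scaling and the expression filter, and 2 with limma with 1 added or library size scaling. With single rats left out it ran from 0 to 8, and from 2 to 8 in the treatment comparison, where it was 3. The count of members at a permutation p under 0.05 ran from 1 to 4 (1 with all rats) and from 1 to 5 (3 with all rats). No share over all genes was taken for the permutation counts or for the counts of the alternative fits. Whether those counts exceed what all genes would give is therefore not known. Signs were followed fit by fit only for the genes named by rule in a comparison. Among these, with library size scaling, TGTR rats turned higher for Syn1 (0.02), Snap25 (0.03), Vamp2 (0.01), Syt1 (0.01), Rab3a (0.03) and Cplx1 (0.03). With single rats left out the sign turned, of the same genes, for Nsf, Syp, Syt1 and Cplx1 between genotypes (Nsf -0.02 to 0.05, Syp -0.01 to 0.05, Syt1 -0.02 to 0.04, Cplx1 -0.09 to 0.05) and for Cplx1, Syn1, Rab3a and Snap25 between treatments (Cplx1 -0.06 to 0.07, Syn1 -0.06 to 0.00, Rab3a -0.04 to 0.01, Snap25 -0.02 to 0.01). Over all fits other members also crossed 0. Examples between genotypes were Doc2a (-0.2 to 0.19), Stx1a (-0.1 to 0.09) and Sv2c (-0.14 to 0.03). Examples between treatments were Syt7 (-0.17 to 0.08), Syt17 (-0.23 to 0.04) and Unc13c (-0.14 to 0.1). Deviations of rats that share a number had correlations of -0.21 to 0.34 between genotypes and of -0.576 to 0.142 between treatments. A rat fitted its own number best in 2 of 5 and 0 of 4 cases. With so few rats this cannot exclude a pairing by number, and the main fits used none. A replicate block, which left out TGTR 5 and TGTR 6, gave 3 members at an unadjusted p under 0.05 in the genotype comparison and 3 in the treatment comparison. Genes with few counts, such as Doc2a, carry wide intervals, and a 1.5-fold difference was not excluded for Syt2, Syt17, Rab3b and Doc2a between genotypes.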
